A study of Rattus norvegicus with 6 samples.

Results

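The genes described here are 10 members of the WNT pathway in rat chondrocytes, namely the secreted antagonists Sfrp1, Sfrp2, Frzb and Dkk3, the ligands Wnt5a and Wnt5b, the receptors Fzd1 and Fzd2, the intracellular relay Ctnnb1 and the feedback target Axin2. They were found by gene symbol in the deposited table, and all 10 were present among its 18420 genes. The list was chosen by gene symbol with the counts of these same libraries known, since Sfrp2 was among the genes past an adjusted p of 0.05 in the contrast described here. For that reason the members' own differences are given as a description and no test is read from them.

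WNT ligands are secreted lipid-modified proteins that bind Frizzled receptors together with co-receptors such as LRP5, LRP6 or ROR2. In the canonical branch this binding stops the destruction of β-catenin, the product of Ctnnb1, which then acts with TCF and LEF factors on target genes such as Axin2. In cartilage the pathway is known for its part in joint formation, chondrocyte maturation and matrix loss, and secreted antagonists such as FRZB and the other SFRP proteins limit it outside the cell.

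RNA-seq of poly(A) RNA was compared between 2 groups of wild-type primary chondrocytes from the knees and hips of male Sprague-Dawley rats, used after passaging. The TNF-α group (n = 3) received 10 ng/mL TNF-α, an inflammatory cytokine, for 6 h. The TNF-α+NFL group (n = 3) received the same TNF-α treatment and then Nanofat lysate (NFL), a freeze–thaw lysate of adipose stromal vascular cells, and was labelled as harvested at 30 h. The untreated NC group was not analysed here, so all libraries compared carry TNF-α, and NFL and harvest time cannot be told apart. The cells were split from the same passage, and no animal or culture is named for a replicate in the labels, so the p-values measure the spread between these samples.

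The libraries held between 19344893 and 19725135 estimated counts. The replicates of the TNF-α group lay furthest apart, with replicates 1 and 3 at -21.2 and 22.7 on the leading principal component (26.1% of the variance) and the TNF-α+NFL libraries between -5.93 and 1.94. In the marker lists that follow, calls are at an adjusted p under 0.05 in edgeR, which 0.611% of all tested genes passed. The groups did not overlap for 16.8% of all tested genes (8.66% higher and 8.17% lower). Of the 10 chondrocyte markers, 8 passed the filter on low counts and 0 differed. Col2a1, which encodes the main cartilage collagen, was at 17.9 to 20.2 CPM (estimated counts scaled to a common library size) in the TNF-α group and at 21.1 to 23.7 CPM with NFL, for a log2 fold change of 0.23 (edgeR adjusted p = 0.22). Col11a1 (0.22, adjusted p = 0.052) and Col9a1 (0.41, adjusted p = 0.49) did not overlap between the groups either and were also above in the TNF-α+NFL group. Comp (-0.078) and Hapln1 (-0.084) had log2 fold changes below 0, and Acan (0.090), Sox9 (0.049) and Matn3 (0.016) above 0, all with overlap. Over all 6 libraries Acan was at 16.4 to 21.4 and Sox9 at 8.34 to 10.4, whereas Matn1 and Cnmd were at or near 0 and the fibroblast collagen Col1a1 was at 3420 to 4130. The chondrocyte list summed to between 1640 and 1780 CPM in the TNF-α group and between 1890 and 2080 in the TNF-α+NFL group, mostly from Col11a1. Of the pericyte list, Mcam was the 1 member of 5 tested that differed (29.7 to 31.1 against 38.1 to 40.0 CPM, log2 fold change 0.37, adjusted p = 0.0056 in edgeR), while the list summed to 1100 to 1300 against 1180 to 1250 CPM and Rgs5 was at or near 0. Cspg4 of the same list lay the other way without overlap, at 67.9 to 83.5 against 61.3 to 65.7 CPM (log2 fold change -0.24, edgeR adjusted p = 0.22), and Kcnj8 had a log2 fold change of -0.24 with overlap. The macrophage list summed to 77.8 to 81.7 CPM in the TNF-α group and 69.7 to 71.7 in the TNF-α+NFL group, with 0 of 2 tested members past the threshold, Cd14 at 53.5 to 55.1 against 45.8 to 49.7 CPM, Ptprc at or near 0 and Csf1r at 2.09 CPM in TNF-α replicate 1 and at most 0.354 elsewhere. The fibroblast list summed to 8410 to 9720 against 8780 to 9260 CPM with 0 of 6 past the threshold, although Thy1 and Dpt lay above in the TNF-α+NFL group without overlap. The adipocyte list summed to 16.6 to 20.5 against 17.6 to 20.3 CPM with Adipoq near 0, and the endothelial and blood lists stayed under 1 CPM in every library. The part of these markers in the WNT values was not tested.

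Sfrp2 (Entrez gene 310552), which encodes a secreted Frizzled-related protein that binds WNT ligands outside the cell, showed the widest gap between the groups among the 10 genes relative to its spread. Its normalised read count after TNF-α alone was 40.8, 42.4 and 41.3 CPM for replicates 1, 2 and 3, and with NFL it was 29.5, 29.4 and 32.2 CPM. All libraries of the former lay above all of the latter. Expressed as TNF-α+NFL over TNF-α, the log2 fold change was -0.45 (SE 0.055), a level 0.733 times that of the TNF-α group, from 574 to 837 estimated counts per library. With 1 library left out it ran between -0.49 and -0.42. The coefficient of variation was 1.96% within the TNF-α group and 5.27% within the TNF-α+NFL group, where counting error alone would give 3.51% and 4.10%. In bulk RNA, fewer cells that express a gene and less of its RNA per cell cannot be told apart.

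The other secreted antagonists among the members were close in both groups. Sfrp1 (Entrez gene 84402), a relative of Sfrp2, was at 10.7, 8.96 and 9.40 CPM in the TNF-α group and at 9.29, 9.53 and 9.98 CPM in the TNF-α+NFL group. These libraries overlapped, and the log2 fold change was -0.011 (SE 0.092), or 0.065 without TNF-α replicate 1. Frzb (Entrez gene 295691), which encodes the cartilage antagonist also called SFRP3, was at 8.74, 7.54 and 8.04 CPM in the TNF-α group and at 8.48, 6.91 and 10.6 CPM in the TNF-α+NFL group. Replicate 3 of the TNF-α+NFL group was the highest and replicate 2 the lowest of all 6 libraries, and the log2 fold change of 0.096 (SE 0.14) became -0.073 without TNF-α+NFL replicate 3. Dkk3 (Entrez gene 171548), a divergent member of the Dickkopf family, was at 68.0, 69.5 and 68.5 CPM in the TNF-α group and at 70.9, 70.2 and 74.1 CPM in the TNF-α+NFL group. The libraries did not overlap, with those given NFL above, and the log2 fold change was 0.063 (SE 0.043).

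**Figure D1:**
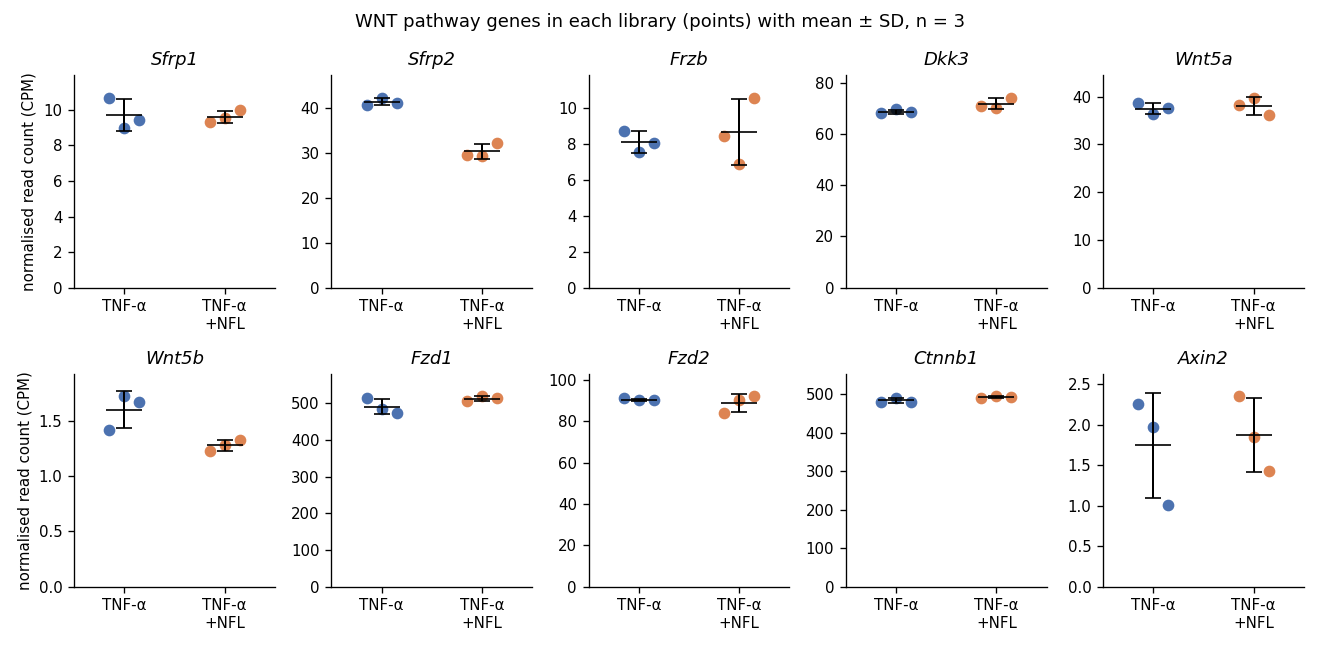
Normalised read count (CPM, vertical axes from 0) of each of the 10 genes in the 3 TNF-α and the 3 TNF-α+NFL libraries (points), with the mean and SD of each group as bars. Sfrp2 sits between 40.8 and 42.4 CPM in the TNF-α group and between 29.4 and 32.2 CPM in the TNF-α+NFL group, whereas the points of most other genes overlap between the groups.

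Among the ligands, Wnt5a (Entrez gene 64566), a mainly non-canonical WNT, was at 38.7, 36.3 and 37.5 CPM in the TNF-α group and at 38.2, 39.8 and 36.1 CPM in the TNF-α+NFL group. The groups overlapped, with a log2 fold change of 0.020 (SE 0.054). Wnt5b (Entrez gene 282582), its close relative, had only 24 to 34 estimated counts per library. It was at 1.41, 1.72 and 1.67 CPM in the TNF-α group and at 1.23, 1.28 and 1.32 CPM in the TNF-α+NFL group, without overlap between them. The log2 fold change was -0.33 (SE 0.21), and counting error alone amounts to 17.9% and 20.0% of its level in the respective groups, so a difference of this size was not detectable at this depth.

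The Frizzled receptors Fzd1 and Fzd2 were abundant. Fzd1 (Entrez gene 58868) was at 514, 485 and 474 CPM in the TNF-α group and at 506, 519 and 515 CPM in the TNF-α+NFL group. TNF-α replicate 1 lay inside the range of the TNF-α+NFL group and the other TNF-α libraries lay below it, so the log2 fold change of 0.066 (SE 0.040) was 0.10 (SE 0.029) without TNF-α replicate 1. Fzd2 (Entrez gene 64512) was at 91.0, 90.2 and 90.1 CPM in the TNF-α group and at 83.7, 90.4 and 92.0 CPM in the TNF-α+NFL group. The difference of Fzd2, a log2 fold change of -0.028 (SE 0.045), turned to 0.013 without TNF-α+NFL replicate 1, the lowest library.

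Inside the cell, Ctnnb1 (Entrez gene 84353) was the most abundant member per transcript length, at 151 ± 1.98 FPKM (SD, n = 3) after TNF-α alone and 151 ± 1.63 FPKM in the TNF-α+NFL group. Its normalised read counts were 481, 491 and 480 CPM in the TNF-α group and 490, 494 and 493 CPM in the TNF-α+NFL group, with a log2 fold change of 0.025 (SE 0.035). RNA levels do not measure β-catenin protein, which the pathway controls by degradation. Axin2 (Entrez gene 29134), a feedback inhibitor that canonical signaling induces in many cells, was at 2.25, 1.97 and 1.01 CPM in the TNF-α group and at 2.35, 1.84 and 1.43 CPM in the TNF-α+NFL group. Each library held between 20 and 46 estimated counts of Axin2, and the coefficient of variation of 37.3% in the TNF-α group and 24.7% in the TNF-α+NFL group exceeded the counting error of 17.1% and 16.5%. The log2 fold change of 0.10 (SE 0.29) became -0.17 when TNF-α replicate 3 was left out and 0.33 when TNF-α replicate 1 was, so no direction could be given for this target.

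Of the 10 genes, all passed the filter on low counts, 6 had a log2 fold change above 0 and 4 below it, and the median was 0.023 against -0.0035 over the 13250 genes tested. Sfrp2 was the 1 member past an adjusted p of 0.05, where 0.611% of all tested genes were in either direction, and 3 members (Sfrp2 and Wnt5b lower, Dkk3 higher) did not overlap between the groups, where 16.8% of all tested genes did not (8.66% higher and 8.17% lower). Since the members were listed from this contrast, nothing is read from these counts.

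**Figure D2:**
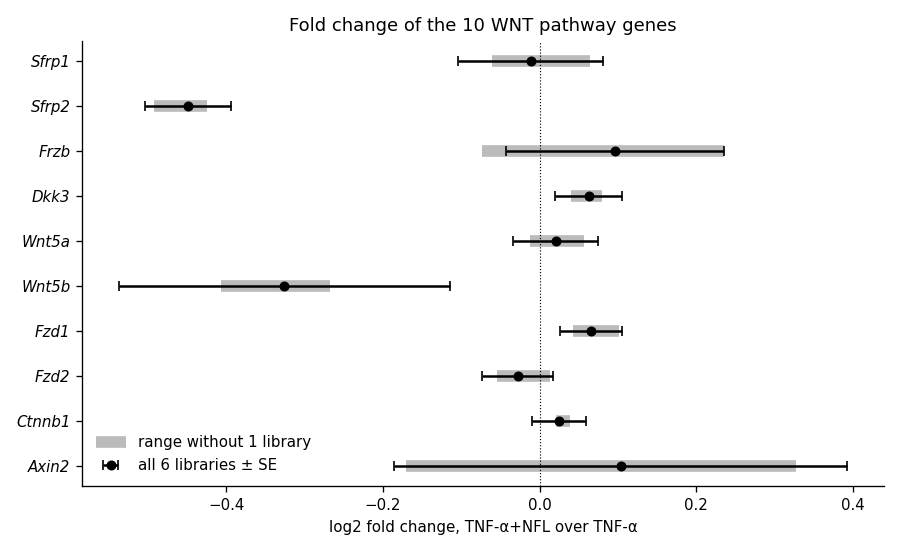
Log2 fold change of TNF-α+NFL over TNF-α for the 10 genes (points, with SE as bars) and the range of the 6 fits that each left out 1 library (grey). The range of Sfrp2 runs from -0.49 to -0.42, and those of Sfrp1, Frzb, Wnt5a, Fzd2 and Axin2 include 0.

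Levels of different genes were compared in FPKM, which is scaled to transcript length. Ctnnb1 lay at the 95.9th and Fzd1 at the 94.5th percentile of the tested genes, followed by Fzd2 (46.9 FPKM), Sfrp2 (18.2 FPKM), Dkk3 (13.8 FPKM) and Wnt5a (8.70 FPKM). Frzb (3.04 FPKM) and Sfrp1 (2.45 FPKM) followed, and their libraries overlapped in level, while Wnt5b (0.668 FPKM) and Axin2 (0.575 FPKM) were the lowest and did not differ beyond their spread. Sfrp2 was the most abundant secreted antagonist in the TNF-α group, at 20.9 ± 0.570 FPKM (SD, n = 3), ahead of Dkk3 at 13.5 ± 0.281 FPKM. In the TNF-α+NFL group they were closer, at 15.4 ± 0.805 and 14.2 ± 0.423 FPKM (SD, n = 3).

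The secreted antagonists of a wider WNT list summed to 61.1, 63.0 and 60.8 FPKM in the TNF-α group and to 55.4, 54.7 and 58.9 FPKM in the TNF-α+NFL group. Without Sfrp2, the remaining antagonists summed to 40.7 ± 0.795 FPKM (SD, n = 3) after TNF-α alone and 40.95 ± 1.44 FPKM in the TNF-α+NFL group. Sfrp2 thus made up 34.0% ± 0.531 of the summed antagonist level in the TNF-α group and 27.3% ± 0.348 in the TNF-α+NFL group (SD, n = 3), with no overlap. This difference follows from that of Sfrp2 itself. The ligands summed to 12.07 ± 0.338 and 11.9 ± 0.649 FPKM (SD, n = 3), of which Wnt5a made up 71.8% ± 2.16 and 73.3% ± 0.687. Wnt9a, a ligand of joint-forming tissue, came next among the ligands at 1.43 FPKM, and Wnt16 was at 0.722 FPKM.

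**Figure D3:**
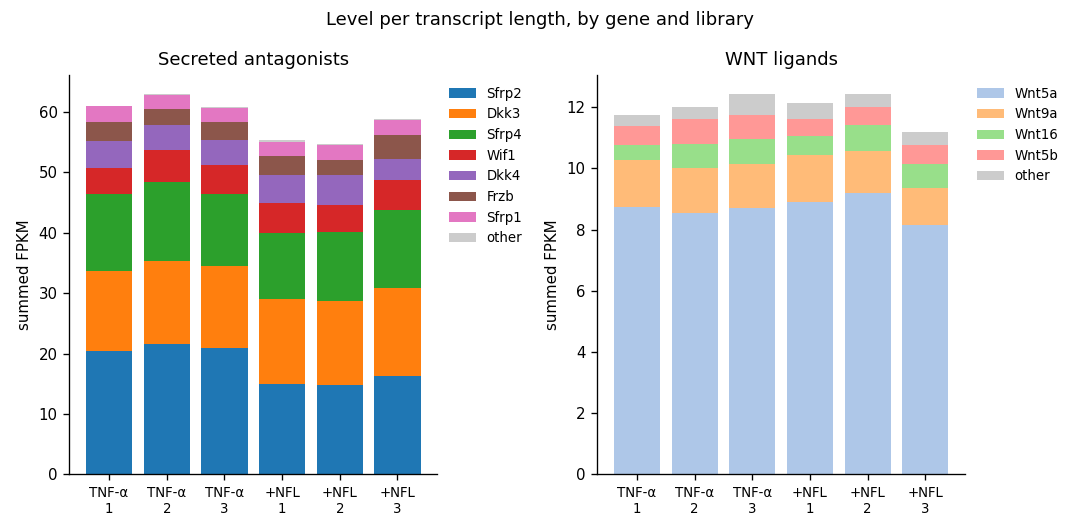
Summed FPKM (vertical axes from 0) of the secreted antagonists and of the WNT ligands in each library, stacked by gene, with the remaining genes of each role in grey. The Sfrp2 segment is shorter in the 3 TNF-α+NFL libraries, at 15.4 against 20.9 FPKM on average, and Wnt5a is the bulk of the ligand level in both groups.

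The rest of the pathway was followed in a list of 123 symbols arranged by role, of which 119 were in the table and 90 passed the filter on low counts. Wnt3a, Wnt7b, Sost and Axin1 were not analysed here. The list was written with earlier results of these data known, which the p-values do not take into account. Of the 80 tested genes outside the 10 members, which were listed by role, 1 was higher and 0 were lower in the TNF-α+NFL group past an adjusted p of 0.05 in edgeR, where 0.408% of all tested genes were higher and 0.204% lower. At an unadjusted p under 0.05 there were 7 higher and 1 lower, where 5.66% and 5.45% of all tested genes were (11.1% in either direction), and 49 of the 80 had a log2 fold change above 0, where 48.2% of all tested genes had. Their median log2 fold change was 0.023.

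The gene that rose was Nkd2 (Entrez gene 308068), which encodes a naked cuticle protein that binds Dishevelled and restrains WNT signaling inside the cell. Its normalised read count after TNF-α alone was 24.8, 25.7 and 26.0 CPM for replicates 1, 2 and 3, and with NFL it was 34.3, 37.1 and 32.4 CPM. Every TNF-α+NFL library lay above every TNF-α library. The log2 fold change was 0.44 (SE 0.061, 95% confidence interval 0.31 to 0.57, edgeR adjusted p = 0.0056), similar in size to that of Sfrp2 and opposite in sign. Since the groups did not overlap, the exact permutation test (two-sided) could only give p = 0.10, the smallest that 3 samples against 3 allow. Nkd2 stayed past the threshold in 3 of the 6 fits that left out 1 library and lost it without TNF-α replicate 2, TNF-α+NFL replicate 1 or TNF-α+NFL replicate 2, with an adjusted p as low as 0.00025 (TNF-α replicate 1 left out) and as high as 0.074 (TNF-α+NFL replicate 1 left out). Over these fits its log2 fold change ran from 0.39 to 0.49. Those 6 fits called 6.94%, 0.127% and 0.306% of all tested genes without TNF-α replicates 1, 2 and 3, and 0.0373%, 0.0821% and 0.194% without TNF-α+NFL replicates 1, 2 and 3. Its relative Nkd1 did not pass the filter, with 6.11 to 11.9 estimated counts per library.

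No other target passed the threshold in edgeR. Ccnd1, which encodes cyclin D1, was at 482, 473 and 467 CPM in the TNF-α group and at 419, 434 and 435 CPM in the TNF-α+NFL group. The groups did not overlap, but the log2 fold change of -0.14 (SE 0.036) did not pass the threshold (adjusted p = 0.12 in edgeR, 0.037 in DESeq2, which called 1.04% of all tested genes, and 0.011 to 0.54 with 1 library left out). Wisp2, the most abundant gene of the list at 286 FPKM and a matricellular CCN family member, had a log2 fold change of 0.076 (95% confidence interval -0.0056 to 0.16), and Myc one of 0.0097. Of the 7 tested targets, including Axin2, 6 had a log2 fold change above 0, where 48.2% of all tested genes had, and 1 passed the threshold, where 0.611% did. Among those above 0, Axin2 (0.10, SE 0.29), Wisp1 (0.079, SE 0.094), Apcdd1 (0.033, SE 0.11) and Myc (SE 0.042) lay within 1 SE of 0.

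**Figure D4:**
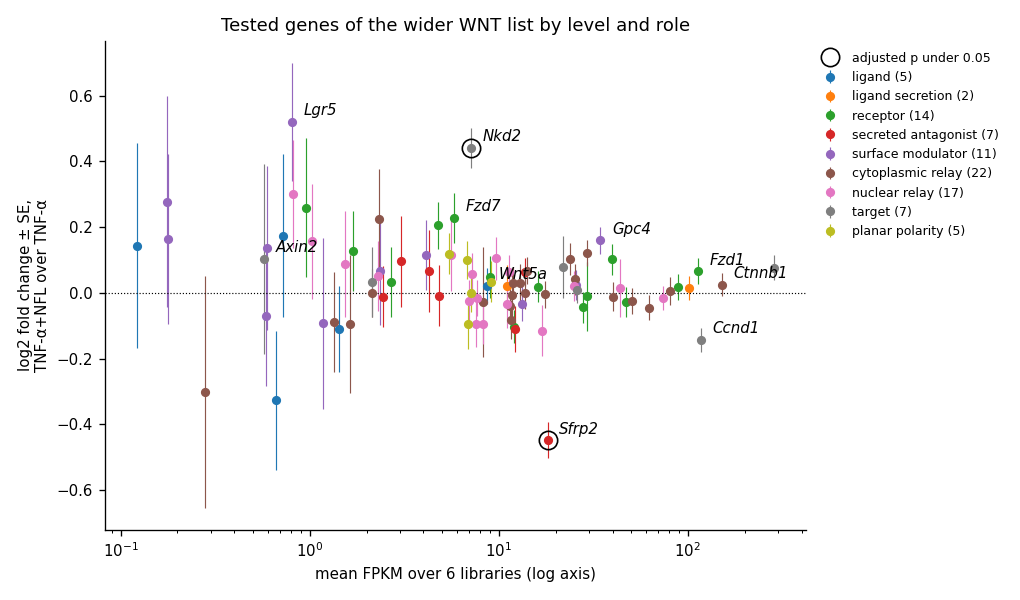
Log2 fold change of TNF-α+NFL over TNF-α (vertical axis, bars show SE) against the mean FPKM over the 6 libraries (horizontal log axis) for the 90 tested genes of the WNT list, coloured by role with the number tested in brackets. Nkd2 at 0.44 and Sfrp2 at -0.45 are circled as past an adjusted p of 0.05, and genes of low level such as Lgr5 have wide error bars.

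For Sfrp2, Axin2 and Nkd2 the stretch before the annotated start is shown, because Axin2 is a target read through TCF and LEF sites while Sfrp2 and Nkd2 are the genes of the list past the threshold. The sequences are from RefSeq (GRCr8, while the deposited counts were made on Rnor_6.0), on the plus strand, 5′ to 3′, and cover the 250 bases before the start. Capitals mark TCF/LEF core motifs, searched on both strands, namely CTTTGAA or its variant CTTTGAT and likewise CTTTGTA or its variant CTTTGTT.
Sfrp2, chr2:171387286-171387535: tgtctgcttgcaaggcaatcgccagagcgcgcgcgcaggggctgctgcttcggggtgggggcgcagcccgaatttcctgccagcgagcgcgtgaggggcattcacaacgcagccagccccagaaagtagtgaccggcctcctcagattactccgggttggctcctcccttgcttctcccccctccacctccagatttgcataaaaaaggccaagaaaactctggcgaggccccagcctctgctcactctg
Axin2, chr10:94398535-94398784: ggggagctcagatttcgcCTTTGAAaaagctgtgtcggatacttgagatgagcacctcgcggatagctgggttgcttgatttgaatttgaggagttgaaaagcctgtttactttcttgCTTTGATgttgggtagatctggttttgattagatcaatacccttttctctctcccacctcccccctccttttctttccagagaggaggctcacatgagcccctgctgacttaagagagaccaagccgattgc
Nkd2, chr1:31272282-31272531: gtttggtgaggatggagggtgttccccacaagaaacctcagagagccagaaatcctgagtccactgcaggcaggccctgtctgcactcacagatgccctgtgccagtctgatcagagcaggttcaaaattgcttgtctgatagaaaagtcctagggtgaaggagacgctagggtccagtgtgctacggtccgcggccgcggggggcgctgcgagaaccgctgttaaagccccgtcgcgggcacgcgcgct

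The Axin2 window held CTTTGAA, beginning 232 bases before the start, and CTTTGAT, beginning 132 bases before it, both on the plus strand. The Sfrp2 and Nkd2 windows held 0 matches, which says only that these letters are not in these windows. Of the 87 genes of the WNT list with a sequence in the RefSeq promoter table, 8 held at least 1 match, where 14.9% of all 33469 windows of this length did, and the 6 members with a sequence (Sfrp2, Frzb, Fzd1, Ctnnb1, Axin2 and Wnt5a) had 1 such gene, Axin2. By role, a match was held by 4 of 6 windows of targets (Axin2, Nkd1, Sp5 and Tnfrsf19), 2 of 5 of secreted antagonists (Sfrp5 and Dkk1), 1 of 15 of ligands (Wnt8a) and 1 of 19 of cytoplasmic relay genes (Gsk3a). Of these genes with a match, only Axin2 and Gsk3a passed the filter on low counts in these libraries. The windows of the remaining roles held 0, among them 11 of receptors and 15 of nuclear relay genes. The G+C content of the windows of the list was higher, with a median of 62.8% against 51.2% over all windows, and the motif counts were not adjusted for that.

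Of the 14 tested receptors and co-receptors, none passed the adjusted threshold in edgeR with all 6 libraries, and 3 were higher at an unadjusted p under 0.05, where 5.66% of all tested genes were, namely Fzd6, Fzd7 and Ptk7. Fzd7 was at 16.3, 15.1 and 14.0 CPM in the TNF-α group and at 17.0, 18.3 and 17.9 CPM in the TNF-α+NFL group, with a log2 fold change of 0.23 (95% confidence interval 0.065 to 0.39, adjusted p = 0.25). Without TNF-α replicate 1 it was 0.28 (edgeR adjusted p = 0.037). Fzd6 had a log2 fold change of 0.20 (95% confidence interval 0.047 to 0.36, adjusted p = 0.29) and its groups did not overlap either. Ptk7, a planar polarity co-receptor, had one of 0.10 (95% confidence interval 0.00083 to 0.20, adjusted p = 0.45), or 0.15 without TNF-α replicate 1 (edgeR adjusted p = 0.0084). That fit called 3.43% of all tested genes higher. Ryk, a WNT receptor of the tyrosine kinase type, was the most abundant receptor outside the members at 88.7 FPKM, with a log2 fold change of 0.018 (95% confidence interval -0.065 to 0.10).

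Gpc4, a cell surface glypican, was at 86.2, 85.9 and 85.7 CPM in the TNF-α group and at 93.7, 97.5 and 96.7 CPM in the TNF-α+NFL group. Its TNF-α replicates were almost identical and the groups did not overlap, yet the log2 fold change of 0.16 (95% confidence interval 0.072 to 0.25) had an edgeR adjusted p of 0.12, and of 0.017 without TNF-α replicate 1. Lgr5, an R-spondin receptor, had the widest log2 fold change of the list outside the threshold, 0.52 (95% confidence interval 0.13 to 0.91, adjusted p = 0.28), from 44 to 83 estimated counts per library. Of the 11 tested surface modulators, 0 passed the threshold and 2, Gpc4 and Lgr5, were higher at an unadjusted p under 0.05, where 5.66% of all tested genes were. Tpbg had a log2 fold change of 0.025 (95% confidence interval -0.073 to 0.12).

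The remaining secreted antagonists were Sfrp4, with a log2 fold change of -0.11 (95% confidence interval -0.26 to 0.041), Wif1, with -0.0089 (95% confidence interval -0.21 to 0.19), and Dkk4, with 0.066 (95% confidence interval -0.20 to 0.34). Dkk2, Sostdc1 and Notum were at 0 estimated counts in all 6 libraries, which allows up to 3 counts per library, and Sfrp5 and Dkk1 did not pass the filter. Of the 17 ligands in the table, 5 were tested, and 0 passed the threshold in edgeR or an unadjusted p of 0.05, where 0.611% and 11.1% of all tested genes did, with log2 fold changes from -0.33 to 0.17.

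In the ligand secretion machinery, Wls had a log2 fold change of 0.016 and Porcn of 0.020. All 22 cytoplasmic relay genes of the table were tested, 0 passed the threshold in edgeR and 1 (Gsk3b) had an unadjusted p under 0.05, against the same 0.611% and 11.1% of all tested genes. Among them were Csnk1a1 with a log2 fold change of 0.0052 (95% confidence interval -0.088 to 0.099) and Csnk1g2 with one of -0.045 (95% confidence interval -0.13 to 0.036). Of the 17 nuclear relay genes, 0 passed the threshold or an unadjusted p of 0.05 in edgeR, against 0.611% and 11.1% of all tested genes, with log2 fold changes of -0.015 for Ctbp1 and 0.015 for Bcl9l. Both counts were also 0 for the 5 tested planar polarity genes, against the same shares, with log2 fold changes of 0.034 for Vangl1 and -0.00094 for Prickle1.

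TNF-α replicate 1 was the highest library of its group for 51 of the 90 tested genes of the WNT list (56.7%), where it was so for 37.9% of all tested genes. TNF-α+NFL replicate 2 was the highest of its group for 45 of the 90, against 35.4% of all tested genes. Without TNF-α replicate 1, 9 of the 81 tested genes outside the members were higher and 1 was lower past an adjusted p of 0.05 in edgeR, where 3.43% of all tested genes were higher and 3.51% lower. They were Nkd2, Csnk1g1, Fzd7, Tle3, Gpc4, Gsk3b, Bcl9l, Ptk7 and Dvl3, which were higher, and Ccnd1, which was lower. Without TNF-α+NFL replicate 1, 0 of the 81 passed, and the share over all genes was 0.0373%.

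The genes whose log2 CPM most resembled that of Sfrp2 over the 6 libraries were Clptm1 (Pearson r = 0.9996), Pdpn (r = 0.997) and Cpt1c (r = 0.996), among 9094 genes with a mean of at least 10 CPM. With 6 libraries that share a treatment contrast, 59 genes had a correlation above 0.95, and the likeness is in pattern over the libraries, not in size. The log2 fold change was -0.044 for Clptm1, -0.20 for Pdpn, which encodes podoplanin, and -0.11 for Cpt1c, all smaller than that of Sfrp2. Pdpn was at 437, 440 and 442 CPM in the TNF-α group and at 378, 377 and 395 CPM in the TNF-α+NFL group.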

How the data were processed

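Oligo(dT)-purified RNA of 3 TNF-α and 3 TNF-α+NFL samples, grouped by their titles, was sequenced as single-end reads. The labels name a BGISEQ-500 and the study's methods an MGISEQ-2000 instrument. The submitters' processing notes name HISAT2 2.0.4, Bowtie2 2.2.5, RSEM 1.2.12 and Rnor_6.0, and the annotation is not given in the sources used here. For each gene the authors deposited an estimated count. These counts can be fractional and carry no normalization. FPKM values deposited by the authors are scaled to transcript length and mapped reads, and their deposited TPM values are scaled to length and to a common sum. Reads shared between near-identical genes are split by such estimates.

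After rounding, a quasi-likelihood test (two-sided) was run in edgeR 4.0.16 under R 4.3.3, with filterByExpr, TMM scaling, robust estimation and p-values adjusted by Benjamini-Hochberg for 13250 genes, on all 6 samples with treatment as the term. The biological coefficient of variation was 6.39%. Each SE is the absolute log2 fold change divided by the root of F. CPM values use TMM-scaled library sizes, and FPKM values were used for levels between genes. The test was checked on simulated counts. Counting errors and floors cover counting error only. DESeq2 1.42.0 and limma 3.58.1 served as alternatives.

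The 10 members, the WNT list and the marker lists were chosen with earlier results of these data known. Genes are named if they are members, pass the threshold or an unadjusted p of 0.05 in the WNT list, rank among the 2 highest non-members of a role by FPKM, or are the 3 most like Sfrp2. Csnk1g1, Tle3, Dvl3, Myc, Wisp1, Apcdd1, Nkd1, Dkk4 and the genes named with the promoter windows or at 0 counts were named after their values were seen.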

Additional observations from a re-analysis of the deposited data

How the results depend on the processing

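Among the 14 alternatives, Sfrp2 was lower in each, with log2 fold changes from -0.49 to -0.42, and its call was lost without TNF-α+NFL replicate 1. Nkd2 was higher in each. Nkd2 was past the threshold in all but limma on log2(FPKM + 1) (adjusted p = 0.077) and the fits without TNF-α replicate 2, TNF-α+NFL replicate 1 or TNF-α+NFL replicate 2. Gsk3b turned from 0.12 to -0.010 with limma on log2(FPKM + 1). For the 10 members, 136 of 138 alternative values lay within 1 SD of the replicates, and the 2 others were Ctnnb1 with FPKM, at 0.00037, and without TNF-α replicate 2, at 0.039. All genes gave 54 higher and 27 lower calls, which became 84 and 48 without a filter on low counts, 88 and 50 with the DESeq2 Wald test, 8 and 6 with limma on log2(FPKM + 1), and 16 and 7 at an adjusted p under 0.01. A replicate block by number gave 25 and 9, and outside the members it called 1 gene of the WNT list, Nkd2. Whether the numbers pair the samples is not given in the labels. The deviations of same-numbered libraries correlated at 0.030, -0.024 and 0.10, which cannot settle it. The WNT list had 1 higher and 1 lower gene, 2 lower with the DESeq2 Wald test (Ccnd1 joining Sfrp2), and 0 higher with limma on log2(FPKM + 1). With 1 library left out, the list ran from 0 to 10 higher and from 0 to 2 lower genes, and all genes ran from 5 to 460 higher and from 0 to 470 lower, with the extremes without TNF-α+NFL replicate 1 and without TNF-α replicate 1. The cause was not tested. The summed ligand and antagonist levels moved by less than the replicate SD in TPM and with 1 library left out. Depth limits Wnt5b, at 24 to 34 estimated counts per library, while the spread of Axin2 between replicates exceeded its counting error.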

Other observations

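Gsk3b, the kinase that marks β-catenin for destruction, differed in its group gap between CPM, computed from the deposited estimated counts, and the deposited FPKM. Its normalised read count was 125 ± 3.49 CPM (SD, n = 3) after TNF-α alone and 136 ± 3.07 CPM in the TNF-α+NFL group, without overlap between the groups (log2 fold change 0.12, SE 0.040, adjusted p = 0.25 in edgeR). On the FPKM scale it was at 29.4 ± 2.44 in the TNF-α group and 29.2 ± 0.624 in the TNF-α+NFL group (SD, n = 3). FPKM divides by a transcript length that can differ between libraries, and whether the transcripts of Gsk3b differed in length was not tested.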
